A study of Homo sapiens with 15 samples.

Results

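The genes described here encode the proteins of the cytosolic ribosome. They were chosen by name: every row of the expression table called RPL or RPS with a number and an optional A or X, plus RPLP0, RPLP1, RPLP2 and RPSA. The rule found 77 of the table's 23368 genes, 46 of the large subunit and 31 of the small subunit. Of these 77, 73 had enough reads to enter the tests, among 14298 genes tested in all. RNA was sequenced from U2OS cells, an osteosarcoma line with wild-type p53. The labels name no introduced genetic change. Cells received Nutlin, which blocks MDM2 and so frees p53, or the vehicle DMSO. The labelled Nutlin dose of 10 has lost its unit prefix and is read as micromolar. Libraries came from S-phase cells (2 Nutlin, 3 DMSO), non-released cells (2 Nutlin, 2 DMSO) and asynchronous cells (3 Nutlin, 3 DMSO), 15 in all. Non-released cells were held in a double block with 2 mM thymidine, which stops DNA synthesis, and S-phase cells were taken 4 h after its release. Nutlin was given 4 h before release or before the block went on, and its duration in asynchronous cells is not stated in the labels. Whether replicates came from separate cultures is not in the labels, and the p-values cover the spread among these libraries, which may be technical.

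A ribosome joins a small subunit, which reads the mRNA, to a large subunit, which forms the peptide bond. Its proteins are made in step with ribosomal RNA, and most of their mRNAs begin with a terminal oligopyrimidine tract (TOP), a C at the cap followed by C and T bases, through which mTOR signalling and the protein LARP1 set their translation. The link to p53 runs through RPL5 and RPL11, which form a particle with 5S ribosomal RNA. When ribosome assembly fails, free RPL5 and RPL11 bind MDM2 and p53 is stabilised, so they act upstream of the step that Nutlin blocks.

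The starts of 8 members are printed because the tract at the cap is the feature that most of these genes share and that their names do not give. Each line shows 12 bases before and 18 bases from the start on the gene's own strand, from RefSeq on GRCh38.p14, with a C and the unbroken C and T run behind it in capitals where that run is at least 5 bases long. RPL11 joins the MDM2-binding particle, RPLP0 anchors the P stalk that recruits elongation factors, RPS6 is the main substrate of S6 kinase in the small subunit, and RPL22 also binds RNA outside the ribosome. RPL36A, RPS3A, RPL9 and RPS26 were the members that differed most between cell states relative to the others. RPL9 and RPS26 have no such run at their listed starts.
RPL11, chr1:23691794-23691823, plus strand: aagctccgctttCTCTTCCTgctctccatc
RPLP0, chr12:120201094-120201123, minus strand: cgggcgcgaggcCCTTCTCTCgccaggcgt
RPS6, chr9:19380219-19380248, minus strand: cggaagttggccCTCTTTTCCgtggcgcct
RPL22, chr1:6199578-6199607, minus strand: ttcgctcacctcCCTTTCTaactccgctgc
RPL36A, chrX:101390999-101391028, plus strand: gcctcgcggtttCTTTCTTTCCgcgccgat
RPS3A, chr4:151099616-151099645, plus strand: ctcccacttccgCCCTTTTggctctctgac
RPL9, chr4:39458905-39458934, minus strand: cgtaatgacgacagacgttctttctttgct
RPS26, chr12:56041906-56041935, plus strand: acacataacctcgattttcttccgccatcc

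A start was listed for 62 of the 77 members. At the listed starts 46 of those 62 (74.2%) carried a run of at least 5 bases, against 5.14% of 27305 genes with a listed start. The ETS-factor motif CCGGAAG, on either strand from 250 bases before to 50 after the start, was in 35.5% of the members and in 12.2% of all genes. A TATAAA box in the same window was in 8.06% of the members and 14.0% of all genes. These matches describe letters in a window and not bound sites.

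Levels between genes are given as reads per kb of coding sequence per M reads, averaged over the 15 libraries. RPS29, a small zinc-binding protein of the small subunit, was highest at 2126, and RPL37A stood at 2015, RPL8 at 1560 and RPL11 at 1550. At the other end RPS18 had reads in 1 library, and RPL39, RPL21 and RPS10 lay at 2.74, 0.197 and 2.56. RPL21, RPL39 and RPS18 were among the 4 members left out of the tests.

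Ribosomal protein genes have many processed pseudogenes, and 50-base reads from identical stretches cannot be assigned to 1 copy. Per member, the share of 50-base coding stretches found also in another GENCODE v29 gene was counted. Any gene with another name counted, including one that overlaps the member at the same locus. The share is therefore not a measure of pseudogene copies alone. The 39 members with at least 50% of stretches shared had a median level of 204 reads per kb per M reads, and the 24 members between 10 and 50% had 985. The 14 members under 10% had 1099. RPL36A, RPL17, RPS26, RPS10, RPL21 and RPL39 share 100% of their stretches, RPS3A 98.9%, RPL22 96.7%, RPL9 90.5% and RPL10 82.1%. Values of such members are uncertain, because the counting could split or drop their reads. RPL5 (38.5%), RPS6 (15.5%) and RPL11 (3.09%) are less exposed.

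**Figure D1:**
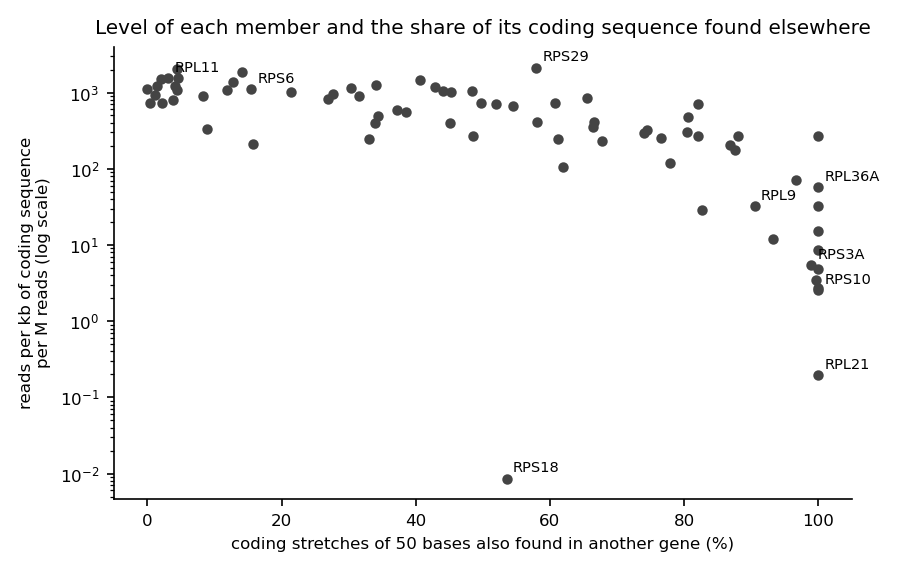
Each point is 1 of the 76 members with any read, with the percentage of its 50-base coding stretches found in another gene on the horizontal axis and its mean level over 15 libraries, in reads per kb of coding sequence per M reads, on a logarithmic vertical axis. Members under 10% shared lie around 1099, and those at 100% include RPL36A, RPS10 and RPL21.

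Libraries held 6.05 to 23.38 M reads assigned to genes, and the members took 1.68 to 2.64% of them. Fewer transcripts per cell and a smaller share of the library cannot be told apart in such values. All values below are on the deposited log2 scale. The median of the tested members was 12.05 and 11.89 in Nutlin S-phase libraries, 11.80, 11.51 and 11.94 in DMSO S-phase libraries, 11.91 and 11.82 in Nutlin non-released libraries, and 11.90 and 11.83 in DMSO non-released libraries. It was 12.11, 12.07 and 11.97 in Nutlin asynchronous libraries and 12.33, 11.996 and 11.78 in DMSO asynchronous libraries. The members moved together from library to library within a group: 71 of 73 lay above their group mean in DMSO asynchronous replicate 1 and 68 below it in DMSO asynchronous replicate 3. In DMSO S-phase replicate 2, the shallowest library, 67 lay below, and in DMSO S-phase replicate 3 67 lay above. The median SD within groups was 0.18 per member, and 0.09 once the members' median was taken from each library.

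Of these libraries 2 stand apart. In DMSO asynchronous replicate 3, 15 of 16 epithelial markers were highest of all libraries (median 9.35, against 5.68 to 6.11 elsewhere), and the p53 targets CDKN1A and MDM2 stood at 14.10 and 14.77, above every Nutlin asynchronous library. Among the other 14 libraries both targets were higher in every Nutlin than in every DMSO library of the same state. Of 10 bone and mesenchymal markers, 9 had reads in every library. Results are therefore given for all 15 libraries and, where they move, without DMSO asynchronous replicate 3 and DMSO S-phase replicate 2. What part the epithelial transcripts and the low depth had in the members' values was not tested. The epithelial markers, CDKN1A and MDM2 of DMSO asynchronous replicate 3 go against its label, but other Nutlin-responsive genes followed below do so less or not at all. RPS27L, at 11.92, lay between the other DMSO asynchronous libraries (12.12 and 11.86). SESN1 and SESN2, at 10.10 and 10.33, lay above those 2 libraries and below every Nutlin asynchronous library. Whether DMSO asynchronous replicate 3 is a mixed or mislabelled library was not tested. It enters every comparison with DMSO asynchronous cells.

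**Figure D2:**
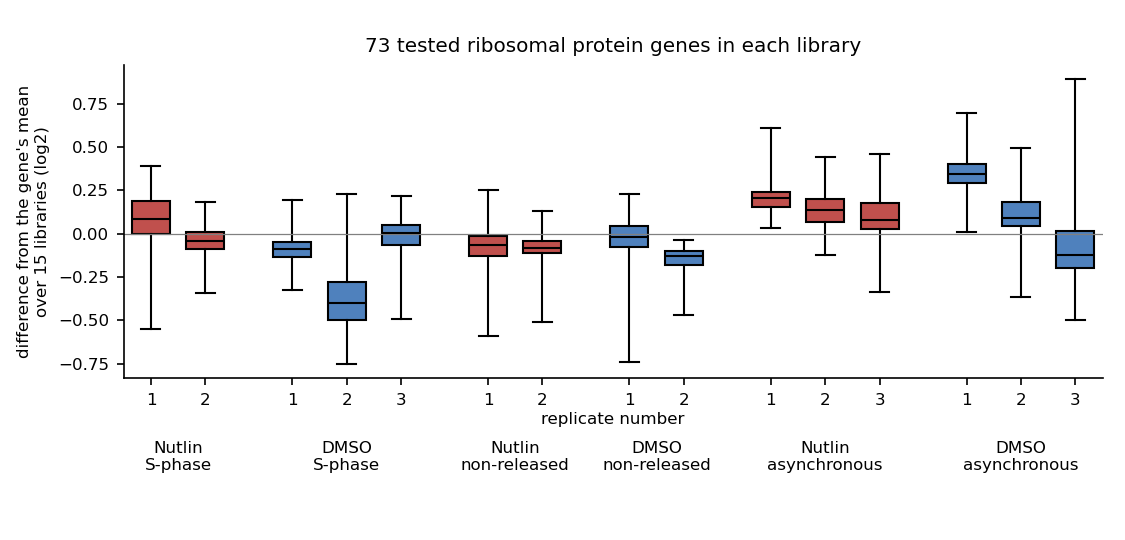
Boxes show, for each of the 15 libraries, the 73 tested members as the difference (log2) from each gene's mean over all libraries, with the quartiles, the median and whiskers from the lowest to the highest member, Nutlin in red and DMSO in blue. The boxes shift as a whole between replicates of 1 group, and DMSO S-phase replicate 2 is the lowest.

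No member passed the test with Nutlin in any state. In S-phase cells the counts were 0 higher and 0 lower of 73 members, against 2.00% of all genes called. In non-released cells 0 were called, against 0.916% of all genes, and in asynchronous cells 0, against 2.45%. The tests were limma with Benjamini-Hochberg adjustment over all genes and adjusted p under 0.05. At an unadjusted p under 0.05, 4 members were higher and 1 lower with Nutlin in S-phase cells. Of all 14298 genes, 1017 were higher and 782 lower there. In the other 2 states 0 members passed that threshold. Among all genes 651 were higher and 303 lower in non-released cells, and 880 and 855 in asynchronous cells. Run as voom on the recovered reads, the test also called 0 in each state. With backgrounds this low, a count of 0 among 73 genes is near that of all genes. The p53 targets CDKN1A and MDM2 were also not called in any state by this test. They differed by 1.96 to 2.00 in S-phase, 1.44 to 1.73 in non-released and 1.22 to 1.38 in asynchronous cells. A count of 0 therefore does not show that Nutlin left the members unchanged.

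How large a change the data could have hidden was read from the 95% intervals. In asynchronous cells 69 of 73 intervals lay wholly within 0.5 of 0 on the log2 scale, and in non-released cells 61 did. In S-phase cells 28 did, so changes of that size are not limited for the other 45. The median difference with Nutlin was 0.19 in S-phase cells, 0.00 in non-released cells and 0.03 in asynchronous cells. Without the 2 libraries that stand apart it was 0.08 in S-phase cells and -0.09 in asynchronous cells, opposite in sign to the value with all libraries, and without DMSO asynchronous replicate 1 it was 0.14 in asynchronous cells. The median over all tested genes was -0.01, -0.02 and -0.02 in the same order of states.

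RPL5, the 5S RNA partner that binds MDM2, stood at 13.03 and 12.86 in Nutlin S-phase libraries and at 12.88, 12.33 and 13.04 in DMSO S-phase libraries. It stood at 12.87 and 12.85 in Nutlin and at 12.92 and 12.79 in DMSO non-released libraries. In asynchronous cells it was 13.25, 13.06 and 13.19 with Nutlin and 13.28, 13.15 and 12.98 with DMSO. The Nutlin and DMSO values overlapped in all 3 states. The difference was 0.19 (95% interval -0.16 to 0.55, adjusted p = 0.636) in S-phase cells, 0.01 (-0.38 to 0.40, adjusted p = 0.999) in non-released cells and 0.03 (-0.28 to 0.35, adjusted p = 0.982) in asynchronous cells, by limma.

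RPL11, its partner in that particle, stood at 13.92 and 13.67 in Nutlin S-phase libraries and at 13.63, 13.16 and 13.69 in DMSO S-phase libraries. Non-released cells gave 13.66 and 13.57 with Nutlin and 13.74 and 13.57 with DMSO. Asynchronous cells gave 13.94, 13.80 and 13.72 with Nutlin and 14.04, 13.71 and 13.56 with DMSO. Here too the groups overlapped in each state. The difference was 0.30 (95% interval -0.06 to 0.66) in S-phase cells, -0.04 (-0.43 to 0.36) in non-released cells and 0.05 (-0.27 to 0.37) in asynchronous cells, and limma's adjusted p was 0.479, 0.999 and 0.973. The S-phase difference of RPL11 was 0.13, and that of RPL5 -0.02, without DMSO S-phase replicate 2. Of the 14 members known to bind MDM2, which include RPL23, RPL26, RPS3, RPS7 and RPS27A, 0 passed in any state, with median differences of 0.21, -0.02 and 0.03.

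The largest differences with Nutlin were in S-phase cells. RPS29 stood at 12.79 and 12.41 with Nutlin and at 12.42, 11.73 and 12.51 with DMSO, a difference of 0.38 ± 0.23 (SE, adjusted p = 0.513 by limma). It was 0.13 without DMSO S-phase replicate 2, and ranged from 0.13 to 0.57 over the omission of single libraries. RPS21, a small-subunit protein, stood at 12.56 and 12.23 with Nutlin and at 12.23, 11.79 and 12.05 with DMSO, a difference of 0.37 ± 0.16 (adjusted p = 0.361) that became 0.21 without Nutlin S-phase replicate 1. RPL36A, which sits near the tRNA exit site, ran the other way, at 8.01 and 8.21 with Nutlin against 8.41, 8.30 and 8.47 with DMSO. Its groups did not overlap, and the difference was -0.28 ± 0.12 (adjusted p = 0.315), or -0.19 without Nutlin S-phase replicate 1. In all, every Nutlin library lay above every DMSO library for 14 of 73 members in S-phase cells. The share of all genes was smaller, at 13.8% (1967 of 14298). The extremes elsewhere were RPS7 in non-released cells, at 0.28 ± 0.17 (adjusted p = 0.999), and RPSA in asynchronous cells, at 0.16 ± 0.17 (adjusted p = 0.827). RPSA, which doubles as a laminin receptor, was at -0.0047 without DMSO asynchronous replicate 3.

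Among the 7 tested paralogs of members, none was called with Nutlin in any state. RPS27L alone had every Nutlin library above every DMSO library in each state. RPL39L did so in S-phase and non-released cells, but its groups overlapped in asynchronous cells. RPS27L, a paralog of RPS27 and a known p53 target, stood at 12.96 and 12.77 in Nutlin S-phase libraries and at 12.26, 11.43 and 12.38 in DMSO ones. In non-released cells it stood at 12.83 and 12.79 with Nutlin and at 12.43 and 12.25 with DMSO. In asynchronous cells it stood at 12.62, 12.48 and 12.51 with Nutlin and at 12.12, 11.86 and 11.92 with DMSO. The groups did not overlap in any state. The difference was 0.84 ± 0.21 (SE), 0.47 ± 0.23 and 0.57 ± 0.18 in the same order of states. With limma and equal weight on all libraries none passed (adjusted p = 0.0544, 0.781 and 0.164). With library weights all 3 passed (adjusted p = 0.0139, 0.00927 and 0.000619), as did non-released and asynchronous cells when only the groups compared were fitted (0.00909 and 0.0226) and S-phase cells with the replicate block (0.0238). Without DMSO S-phase replicate 2 all 3 passed, with differences of 0.54, 0.47 and 0.57 (adjusted p = 0.0173, 0.045 and 0.00171). In S-phase cells it also passed without DMSO asynchronous replicate 3 (adjusted p = 0.0438) or DMSO S-phase replicate 3 (adjusted p = 0.0187). RPS27 itself, with 100% of its stretches shared, differed by -0.14, -0.09 and 0.11, and was not called.

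Genes that restrain translation of TOP mRNAs were also followed. SESN2, a p53-induced stress sensor that restrains mTOR signalling, stood at 11.02 and 11.27 in Nutlin S-phase libraries against 10.05, 10.00 and 9.98 in DMSO ones. Non-released cells gave 11.25 and 11.28 with Nutlin and 10.35 and 10.55 with DMSO, and asynchronous cells 11.37, 11.34 and 11.36 with Nutlin and 9.79, 10.07 and 10.33 with DMSO. It rose with Nutlin by 1.13 ± 0.13, 0.81 ± 0.14 and 1.29 ± 0.11 (limma adjusted p = 0.000285, 0.0108 and 1.89e-05). In non-released cells the call was lost without any 1 of the 4 libraries compared, with adjusted p from 0.0525 to 0.196. SESN1 rose in S-phase (1.53 ± 0.26) and asynchronous cells (1.30 ± 0.23), and differed by 0.90 ± 0.29 in non-released cells without passing. LARP1, EIF4EBP1, EIF4EBP2 and DDIT4 were not called with Nutlin in any state. TOP mRNAs of translation factors, such as EEF1A1 and EEF2, gave 0 calls of 15 in each state.

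The block and the release from it were compared with asynchronous growth in each treatment. In non-released DMSO cells 0 members rose and 10 of 73 fell, a share of 13.7%, while 16.9% of all genes were higher and 17.0% lower than in asynchronous DMSO cells. With Nutlin 0 rose and 11 fell, 15.1% of members, while 17.3% of all genes were higher and 17.2% lower. The share of members that fell was near that of all genes, and the share that rose was below it. The median difference was -0.18 with DMSO and -0.20 with Nutlin, against -0.01 and 0.00 over all genes, but quantile normalisation turned the medians to 0.07 and 0.01. The DMSO median was -0.05 without DMSO asynchronous replicate 1 and -0.28 without asynchronous replicate 3. Every non-released library lay below every asynchronous one for 24 of 73 members with DMSO, against 28.9% of all genes (4131 of 14298). With Nutlin this held for 57 of 73 members, against 35.4% of all genes (5055 of 14298). Both were larger shares of members than of all genes.

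Single libraries moved these counts. The share of all genes called is not set beside the counts without 1 library, so they do not show whether members moved more than other genes. The DMSO count of 10 became 4 without DMSO asynchronous replicate 1, 23 without asynchronous replicate 3, 4 and 2 without non-released replicates 1 and 2, and 17 without S-phase replicate 2, which enters only through the shared spread. Without both libraries that stand apart 41 of 73 members fell, 56.2% against 24.2% of all genes. The Nutlin count of 11 became 7 without asynchronous replicate 1 or 3 and 3 and 6 without non-released replicates 1 and 2. It became 27, or 37.0% against 24.6% of all genes, without both libraries that stand apart. The 10 members called with DMSO were all among the 11 called with Nutlin. The 2 comparisons share no library, but they share 1 fit and 1 estimate of the spread per gene. How far the calls of all genes overlapped was not counted. With each library centred on its members' median, 2 were called with each treatment.

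RPL36A changed most. It stood at 7.79 and 7.87 in Nutlin non-released libraries and at 8.99, 8.83 and 8.70 in Nutlin asynchronous libraries. With DMSO it stood at 7.64 and 7.91 in non-released and at 8.90, 8.88 and 8.86 in asynchronous libraries. The states did not overlap in either treatment, and the difference was -1.004 ± 0.12 with Nutlin (SE, adjusted p = 4.78e-05) and -1.102 ± 0.12 with DMSO (adjusted p = 2.53e-05, limma). RPL9, a large-subunit protein near the sarcin-ricin loop, stood at 8.19 and 8.08 in Nutlin non-released and at 8.76, 8.84 and 8.90 in Nutlin asynchronous libraries, and at 8.12 and 8.04 in DMSO non-released and 8.98, 8.86 and 8.54 in DMSO asynchronous libraries. It fell by 0.70 ± 0.13 and 0.72 ± 0.13 (adjusted p = 0.000967 and 0.000807). Both members kept these calls without any single library. Their levels were low for the set, at 57.2 and 32.4 reads per kb per M reads, against a median of 483 over all 77 members. RPL17, RPS26 and RPS3A, described next, lay at 32.6, 15.3 and 5.39, and RPS3A rested on 23 to 108 reads per library. Other called members lay above the median, such as RPL13 at 726 and RPL8 at 1560.

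RPS26, which contacts mRNA near the exit channel, stood at 6.66 and 6.72 in Nutlin non-released libraries, against 7.29, 7.47 and 7.30 in Nutlin asynchronous ones. With DMSO it stood at 6.85 and 6.81 in non-released libraries, against 7.44, 7.27 and 7.19. It fell by 0.66 ± 0.13 with Nutlin (adjusted p = 0.00225, limma) and by 0.47 ± 0.13 with DMSO (adjusted p = 0.0165). RPS3A stood at 6.49 and 6.68 in Nutlin non-released libraries, against 7.01, 7.25 and 7.15 in asynchronous ones, and at 6.50 and 6.53 against 7.08, 6.94 and 6.98 with DMSO. It fell by 0.55 ± 0.13 and 0.49 ± 0.13 (adjusted p = 0.0045 and 0.00953). RPL17, at the rim of the peptide exit tunnel, fell by 0.51 ± 0.14 with DMSO (adjusted p = 0.0106), and RPL13 by 0.44 ± 0.11 with Nutlin (adjusted p = 0.00664). With DMSO, the calls of RPS26, RPS3A and RPL17 were lost without either non-released library (adjusted p from 0.0594 to 0.107), and that of RPS26 also without asynchronous replicate 1 (0.0541). With Nutlin, those of RPS3A and RPL13 were lost without non-released replicate 1 (0.0686 and 0.0923). The other members called in both treatments were RPL10, RPL15, RPL22 and RPL27A, which fell by 0.28 to 0.45 with DMSO, and RPL8 was called with Nutlin alone (by 0.41 with Nutlin, adjusted p = 0.0229, and at -0.34 with DMSO, adjusted p = 0.0566).

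**Figure D3:**
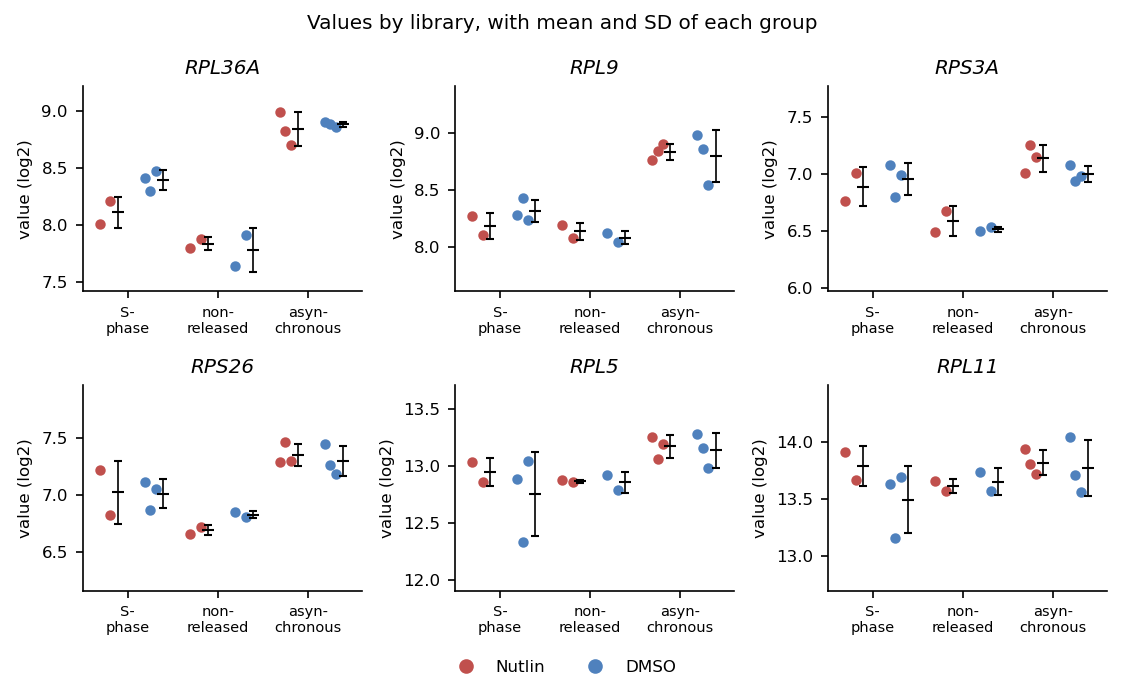
Each panel shows the deposited log2 value of 1 gene in all 15 libraries, Nutlin in red and DMSO in blue, with the mean and SD of each group as a black mark beside its points. RPL36A, RPL9, RPS3A and RPS26 lie lower in non-released than in asynchronous cells in both treatments, while the Nutlin and DMSO values of RPL5 and RPL11 overlap in each state.

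Of the 10 members called in non-released DMSO cells, 9 share at least 50% of their coding stretches with other genes. The median difference was -0.24 for the 35 tested members with at least 50% shared and -0.12 for the 14 under 10%. Of the 10, 6 have a run of at least 5 bases at their start. Members with such a run (43 tested) had a median difference of -0.17, and those with a listed start but no run (16) of -0.27. What part shared sequence had in these differences was not tested.

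In S-phase, 0 members rose and 15 of 73 fell with DMSO relative to asynchronous cells, 20.5% of members, while 14.1% of all genes were higher and 13.6% lower. With Nutlin 0 rose and 3 fell, 4.11% of members, while 13.4% of all genes were higher and 10.6% lower. The median difference was -0.27 with DMSO and -0.10 with Nutlin, and both kept their sign under quantile normalisation, centring on the median gene and centring on the median short gene. Without DMSO asynchronous replicate 1 or DMSO S-phase replicate 2 the DMSO median was -0.15, and without Nutlin S-phase replicates 1 and 2 the Nutlin median was -0.17 and -0.04. Of the 15, 14 encode large-subunit proteins, among 44 tested in that subunit, and RPS7 was the 1 of 29 in the small subunit. The difference between the subunits was not tested.

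RPL22 stood at 8.81, 8.49 and 8.80 in DMSO S-phase libraries, against 9.27, 9.14 and 9.18 in DMSO asynchronous libraries, with no overlap, and fell by 0.50 ± 0.11 (SE, adjusted p = 0.00688, limma). RPL36A fell by 0.49 ± 0.10 with DMSO (adjusted p = 0.00453) and by 0.73 ± 0.12 with Nutlin (adjusted p = 0.000838). RPL9 fell by 0.48 ± 0.11 (adjusted p = 0.00714) and 0.65 ± 0.13 (adjusted p = 0.0026). RPL17 fell with Nutlin by 0.51 ± 0.14 (adjusted p = 0.0148), a call lost without Nutlin asynchronous replicate 2 or either Nutlin S-phase library. RPL27A, which carries an intronic snoRNA, fell by 0.48 ± 0.12 with DMSO. RPL13A, which also controls inflammatory mRNAs, stood at 11.41, 10.92 and 11.64 in DMSO S-phase libraries, against 11.93, 11.87 and 11.69 in DMSO asynchronous libraries. It fell by 0.51 ± 0.14 (adjusted p = 0.0164), by 0.31 without DMSO S-phase replicate 2, and lost that call without DMSO asynchronous replicate 1 or 2 (0.0544 and 0.0523).

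The DMSO count of 15 became 4, 7 and 43 without DMSO asynchronous replicates 1, 2 and 3, and 9 and 27 without DMSO S-phase replicates 2 and 3. The share of all genes is given below only where both libraries that stand apart were left out. The other counts do not show whether members moved more than other genes. It became 34, or 46.6% against 16.0% of all genes, without both libraries that stand apart, and 1 when only the 2 groups compared entered the fit. The Nutlin count of 3 became 5 without either of those libraries and 14 without both (19.2% against 19.3% of all genes). Every S-phase library lay below every asynchronous one for 15 of 73 members with DMSO, against 17.6% of all genes (2516 of 14298). With Nutlin this held for 29 of 73 members, against 29.4% of all genes (4201 of 14298). Both were larger shares of members than of all genes.

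Between S-phase and non-released cells, RPL36A was the 1 member that rose with DMSO and 0 fell, while 4.11% of all genes were higher and 2.89% lower. It stood at 8.41, 8.30 and 8.47 in S-phase, against 7.64 and 7.91 in non-released libraries, a difference of 0.61 ± 0.12 (SE, adjusted p = 0.00647, limma) that lost its call without DMSO non-released replicate 1 (adjusted p = 0.129). With Nutlin 0 of 73 members were called, against 2.43% of all genes. There 4 members were higher and 0 lower at an unadjusted p under 0.05, and voom called 0. The unadjusted count was not set against the share of all genes at that threshold. RPS3A differed by 0.44 ± 0.13 with DMSO (adjusted p = 0.0515) and passed without DMSO S-phase replicate 2 (adjusted p = 0.0264), DMSO asynchronous replicate 3 (0.0425) or either Nutlin S-phase library (0.0473 and 0.0474). Every S-phase library lay above every non-released one for 32 of 73 members with Nutlin. The share of all genes was smaller, at 27.8% (3980 of 14298).

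Genes for ribosome production outside the ribosome itself were followed in the same comparisons. Of 19 assembly factors, which process ribosomal RNA and fold it into subunits, 18 fell in non-released cells with Nutlin (median -0.92) and 18 with DMSO (median -0.88), where 17.2% and 17.0% of all genes fell. In S-phase 17 fell with Nutlin (median -0.63) and 18 with DMSO (median -0.57), where 10.6% and 13.6% of all genes fell. RRS1, which brings the 5S particle with RPL5 and RPL11 into the large subunit, stood at 9.11 and 8.89 in Nutlin non-released against 10.86, 10.83 and 10.63 in Nutlin asynchronous libraries, and at 9.18 and 8.89 against 10.86, 10.70 and 10.63 with DMSO. It fell by 1.77 ± 0.13 and 1.69 ± 0.13 (adjusted p = 2.73e-06 and 5.01e-06, limma). NCL, the nucleolar protein nucleolin, fell by 0.90 ± 0.11 and 0.85 ± 0.11 (adjusted p = 8.3e-05 and 0.00013). HEATR3, which imports RPL5, was not called in either treatment. With only the 2 groups compared in the fit, 9 of 19 fell in S-phase DMSO cells. None of the 19 was called with Nutlin against DMSO in any state.

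**Figure D4:**
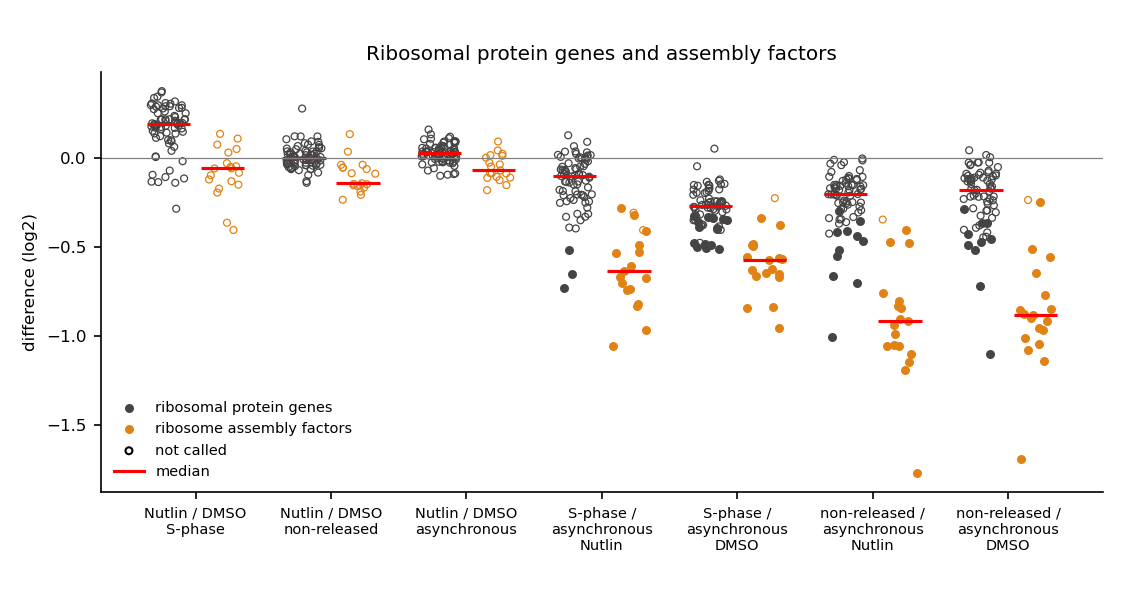
Each point is the difference (log2) of 1 gene in the comparison named below it, for the 73 tested ribosomal protein genes (grey) and 19 assembly factors (orange). Filled points passed the test, open points did not, and red lines mark medians. With Nutlin no point is filled, and in non-released against asynchronous cells the medians are -0.20 and -0.18 for ribosomal protein genes (0.01 and 0.07 after quantile normalisation) and -0.92 and -0.88 for assembly factors, with Nutlin and with DMSO.

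Of 15 TOP genes of translation, 5 fell in non-released cells in each treatment (medians -0.26 with Nutlin and -0.29 with DMSO). The shares of all genes there were 17.2% lower and 17.3% higher with Nutlin, and 17.0% lower and 16.9% higher with DMSO. Among them, NPM1, the nucleolar chaperone nucleophosmin, fell by 0.81 ± 0.15 and 0.73 ± 0.15, and EEF2, the translocation factor, by 0.52 ± 0.10 and 0.47 ± 0.10. Of 74 tested genes for mitochondrial ribosomal proteins, 21 fell with Nutlin and 18 with DMSO (medians -0.25 and -0.22), and 1 rose in each. Of 7 tested paralogs 1 rose and 1 fell in each treatment. RPL39L, the paralog of RPL39 known from testis, stood at 9.61 and 9.72 in Nutlin non-released against 9.23, 9.06 and 9.15 in asynchronous libraries, and at 9.56 and 9.53 against 9.26, 8.95 and 8.45 with DMSO. It rose by 0.52 ± 0.17 and 0.66 ± 0.17 (adjusted p = 0.0341 and 0.0107). These calls were lost without any 1 of the 5 Nutlin libraries compared or either DMSO non-released library (adjusted p from 0.0524 to 0.176 and 0.0642 to 0.0677). RPL7L1, an assembly factor despite its name, fell by 0.70 ± 0.12 and 0.77 ± 0.12. FAU, made as a fusion with a small-subunit protein, and GNB2L1, a scaffold on the small subunit, were not called in non-released cells.

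Members were also counted by their place and role, to be read against the 17.2% (Nutlin) and 17.0% (DMSO) of all genes lower in non-released cells and the 10.6% and 13.6% lower in S-phase. The P stalk (RPLP0, RPLP1, RPLP2 and RPL12), which recruits elongation factors, gave 0 calls of 4 in all comparisons between groups. RPLP0 stood at 13.57 and 13.66 in Nutlin non-released against 13.80, 13.72 and 13.80 in Nutlin asynchronous libraries, and at 13.65 and 13.60 against 13.92, 13.70 and 13.37 with DMSO. Its groups overlapped with DMSO and not with Nutlin. Of 6 tested proteins at the rim of the exit tunnel 1 fell in non-released cells in each treatment, RPL17, and of 5 at the mRNA entry and decoding side 0 fell. Of 5 early 40S proteins, which include RPS6, 0 fell in non-released cells and 1, RPS7, in S-phase DMSO cells. Of 22 tested members whose introns carry snoRNAs, 3 fell in non-released cells in each treatment, and in S-phase 1 with Nutlin and 6 with DMSO. With lists this short, 1 gene moves the share widely.

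RPS6 stood at 13.89 and 13.64 in Nutlin S-phase, 13.60, 13.25 and 13.69 in DMSO S-phase, 13.63 and 13.63 in Nutlin non-released and 13.70 and 13.56 in DMSO non-released libraries. In asynchronous cells it stood at 13.90, 13.85 and 13.85 with Nutlin and 14.03, 13.85 and 13.52 with DMSO. RPL10, which joins the large subunit last, stood at 11.63 and 11.33 in Nutlin S-phase, 11.30, 11.21 and 11.39 in DMSO S-phase, 11.32 and 11.29 in Nutlin non-released and 11.38 and 11.30 in DMSO non-released libraries. Its asynchronous values were 11.67, 11.59 and 11.56 with Nutlin and 11.71, 11.52 and 11.64 with DMSO, above every non-released library. RPS27A, made as a fusion with ubiquitin, stood at 11.56 and 11.25 in Nutlin S-phase, 11.17, 10.63 and 11.38 in DMSO S-phase, 10.84 and 11.10 in Nutlin non-released and 11.12 and 11.07 in DMSO non-released libraries. In asynchronous cells it stood at 11.39, 11.19 and 11.35 with Nutlin and 11.36, 11.19 and 11.07 with DMSO. With Nutlin its non-released libraries lay below every S-phase and asynchronous library, while with DMSO the 3 states overlapped.

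After each library was centred on its members' median, the group means of RPL36A varied most (SD 0.42 over the 6 groups), followed by RPL9 (0.27), RPS3A (0.21), RPS26 (0.20) and RPL17 (0.19). Their SDs within groups were 0.19, 0.17, 0.19, 0.12 and 0.09, so that RPS3A varied between groups by little more than within them. Among the steadiest were RPS24, RPL29 and RPL27 (SD 0.02 each), whose SDs within groups were 0.07, 0.06 and 0.07.

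Whether the Nutlin response differed between states was tested directly. For the 3 differences between responses 0 of 73 members were called, as were 0% of all genes, with a smallest unadjusted p of 0.0714 among the members, and voom called 0. Median differences were -0.03 for non-released minus asynchronous, 0.17 for S-phase minus asynchronous and 0.19 for S-phase minus non-released cells. Leaving out single libraries moved them over -0.15 to 0.08, 0.05 to 0.29 and 0.08 to 0.28, with the extremes set by DMSO asynchronous replicates 1 and 3 for the first, DMSO S-phase replicate 2 and asynchronous replicate 3 for the second, and DMSO S-phase replicates 2 and 3 for the last. The 95% intervals reached 0.5 or more from 0 for 43, 61 and 69 members, so differences of that size between states were not limited for most of them.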

How the data were processed

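The deposited table holds variance-stabilised log2 values, made by the authors from reads per gene, for 23368 genes in 15 libraries. Upstream tools named in the submitters' processing notes, without their roles, are TopHat 0.9, HTSeq, CASAVA 1.8.2 and DESeq2 1.10.1, with the build hg19. The strand setting and gene annotation are not stated there. Per the labels' protocols, a TruSeq kit took 1000 ng of RNA per library, and single reads had 50 nt. Inverting the transformation, whose lowest value was 4.859, gave whole reads within 0.05 for at least 99.29% of values per library. Genes at least 1 unit above the lowest value in 2 or more libraries were tested. The two-sided test was limma 3.58.1 under R 4.3.3, a mean for each group, all libraries in 1 fit and a mean-variance trend. Adjustment was by Benjamini-Hochberg within each of 12 comparisons, and calls had adjusted p under 0.05. The procedure was tested on simulated data. Log2 differences of low genes are understated on this scale. Groups follow the library labels. The members and lists were chosen with earlier results of these data known. Named per comparison were all called members where 6 or fewer, otherwise the 5 of smallest p, and the 3 largest differences each way. The 5 highest and lowest levels, the 5 most and least variable members and 8 fixed members could also be named, a few of them not reported here, and called members beyond this rule were named after their values were seen. Coding lengths and shared stretches came from GENCODE v29 and starts from RefSeq, both on GRCh38 and not on the submitters' build.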

Additional observations from a re-analysis of the deposited data

How the results depend on the processing

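The 3 Nutlin comparisons and the 3 differences between responses gave 0 called members under every alternative tried. Other counts moved, and the cause was not tested. In the order non-released DMSO, S-phase DMSO, non-released Nutlin and S-phase Nutlin, each against asynchronous cells, the counts of 10, 15, 11 and 3 became 30, 33, 33 and 8 with library weights, and 41, 34, 27 and 14 with both outlying libraries (DMSO asynchronous replicate 3 and DMSO S-phase replicate 2) left out. Centring on the members' own median, chosen after seeing the data, gave 2, 0, 2 and 1. With the compared groups alone in the fit, S-phase DMSO gave 1, non-released Nutlin 42 and S-phase Nutlin 9. Leaving out 1 library gave 2 to 23, 4 to 43, 3 to 16 and 2 to 5. Except where both outlying libraries were left out, the share of all genes called is not set beside such counts, here or above. They therefore do not show whether members moved more than other genes. For S-phase against non-released DMSO cells the count of 1 became 0 with compared groups alone or members centred, 2 with a stricter filter, centring on the median gene, voom, no trend or both libraries left out, 3 with quantile normalisation and 4 with library weights, and 0 to 2 leaving out 1 library. With Nutlin it became 2 without both libraries. Quantile normalisation turned the non-released medians to 0.0676 (DMSO) and 0.0144 (Nutlin). The 18 assembly factors lower in S-phase DMSO cells became 9 with compared groups alone and 7 with members centred.

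Small Nutlin differences changed sign. In asynchronous cells RPL5 was -0.02 with quantile normalisation, -0.0093 with library weights and -0.0456 without both libraries, where RPL11 was -0.0573 and RPSA -0.0047. RPL5 was -0.0206 in non-released cells with quantile normalisation, and in S-phase cells -0.0156 without both libraries and -0.0236 with members centred. Leaving out 1 library gave, in asynchronous cells, -0.0456 to 0.1051 (RPL5), -0.0573 to 0.1834 (RPL11) and -0.0047 to 0.3205 (RPSA), in non-released cells -0.0524 to 0.0733 (RPL5) and -0.1226 to 0.0492 (RPL11), and in S-phase cells -0.0157 to 0.3379 (RPL5).

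Same-numbered Nutlin and DMSO libraries correlated at 0.074 to 0.351 in their deviations from group means, and differently numbered ones at -0.351 to 0.27. The same-numbered value of 0.074 was that of the pair with DMSO asynchronous replicate 3. As not every same-numbered pair was above 0.1, the numbers were not taken as pairs, but a pairing was not excluded. With the replicate block the counts were 14, 16, 13 and 4 in the order above, 1 for S-phase against non-released DMSO cells and 0 with Nutlin against DMSO. The shallowest library, DMSO S-phase replicate 2, held 6.05 M reads, and depth was not varied as a setting.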
